A study of Bos taurus with 56 samples.

Results

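The HOX genes of the bovine oviduct epithelium are described here, taken as every symbol of the read-count table that begins with HOXA, HOXB, HOXC or HOXD and ends in a number only. That rule found 37 members among 31903 genes, 11 in the HOXA cluster, 8 in HOXB, 9 in HOXC and 9 in HOXD. HOXB5 and HOXB8 have no row in the table and were not analysed here.

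HOX genes encode transcription factors with a homeodomain that give cells a position along the body axis. They lie in clusters, and the number in the symbol, the paralog group, follows the order within a cluster. Genes of low number are the anterior ones, genes of high number the posterior ones, and the embryonic reproductive duct is known for using the posterior HOXA genes to tell oviduct, uterus, cervix and vagina apart. HOX proteins bind DNA with cofactors of the PBX and MEIS families, retinoic acid switches on anterior HOX genes in the embryo, and Polycomb proteins keep silent HOX genes off.

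RNA was sequenced from epithelial cells scraped from the ampulla, the upper part of the oviduct next to the ovary, and from the isthmus, the lower part next to the uterus. Both oviducts of each animal were used, the ipsilateral one lying on the side of the corpus luteum (CL) and the contralateral one on the other side. The 14 Holstein females gave 4 libraries each, so that 2 regions, 2 sides and 3 metabolic groups made 12 conditions and 56 libraries. The metabolic groups were 5 nulliparous heifers, 5 non-lactating cows that were never milked after calving, and 4 lactating cows, the cows being primiparous and about 60 days post-partum at synchronization. All animals, heifers included, had been synchronized with a progesterone device, a prostaglandin F2 alpha analogue and buserelin, were not inseminated, and were slaughtered on Day 3 after estrus. A scraping holds ciliated and secretory cells together, so in these bulk samples fewer cells of a type and less RNA per cell cannot be told apart. Animals are the replicates, lettered within each metabolic group.

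Counts on genes ran from 1901454 to 6836850 per library, with a median of 4931502.5, and were lowest in a contralateral isthmus. They made up 8.66% to 13.7% of the alignments tallied in a library, and 28.3% to 50.1% were assigned to no feature. The epithelial marker list (EPCAM, CDH1, KRT8, KRT18, KRT19, CLDN4) summed to between 849 and 1891 CPM (counts scaled to a common library total) in all 56 libraries. A list of 5 red blood cell genes summed to at most 0.96 CPM, and its members HBA and HBB had no count in any library. A row without any count cannot tell absent blood from reads that were not assigned to it. In 4 ipsilateral ampulla libraries the animal number of the column did not match the animal that the library resembled. A pair of them, numbered non-lactating cow B and heifer B, correlated best with each other's animal (0.85 each, across 200 genes), so that label and animal disagree on the metabolic group. The other pair carried each other's number (non-lactating cow C and lactating cow B) and matched the group they were named for. The other 52 libraries correlated best with their own animal.

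HOX transcripts came almost wholly from the anterior and middle members of the clusters. Of the 21 members of paralog groups 1 to 8, 15 had a median of at least 10 counts per library, and together the 21 held 67559 counts. None of the 16 members of groups 9 to 13 did, and those 16 held 297 counts over 56 libraries, or 0.438% of all HOX counts. With 15 of 37 members at that median, the share of HOX genes detected was 40.5%, against 42.4% of all genes in the table. The detected members were HOXA2, HOXA3, HOXA4, HOXA5, HOXA6, HOXB2, HOXB3, HOXB4, HOXB6, HOXB7, HOXC4, HOXC5, HOXD3, HOXD4 and HOXD8.

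No member was at 0 in all libraries. HOXA10, HOXB13, HOXC13 and HOXD12 had at most 3 counts in every library, the floor taken here for a detected gene, and their totals over 56 libraries were 6, 4, 2 and 2 counts. Another 18 members rose above 3 counts in fewer than 28 libraries. Among those of paralog groups 1 to 8 were HOXA7 (7 libraries), HOXB1 (1), HOXC6 (19), HOXC8 (2) and HOXD1 (15). Those of groups 9 to 13 were HOXA9, HOXA11, HOXA13, HOXB9, HOXC9, HOXC10, HOXC11, HOXC12, HOXD9, HOXD10, HOXD11 and HOXD13, and none of these passed 3 counts in more than 4 libraries or reached more than 9 counts in any. HOXA10 and HOXA11, which pattern the uterus, and HOXA13, which patterns the lowest end of the tract, had totals of 6, 34 and 35 counts. HOXA9, the remaining posterior HOXA member, was as low, with 29 counts in total and more than 3 in only 2 libraries. At this depth a level of 3 counts or fewer was not told from 0, so a gene at that level in a library is called not detectable there and not absent.

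**Figure D1:**
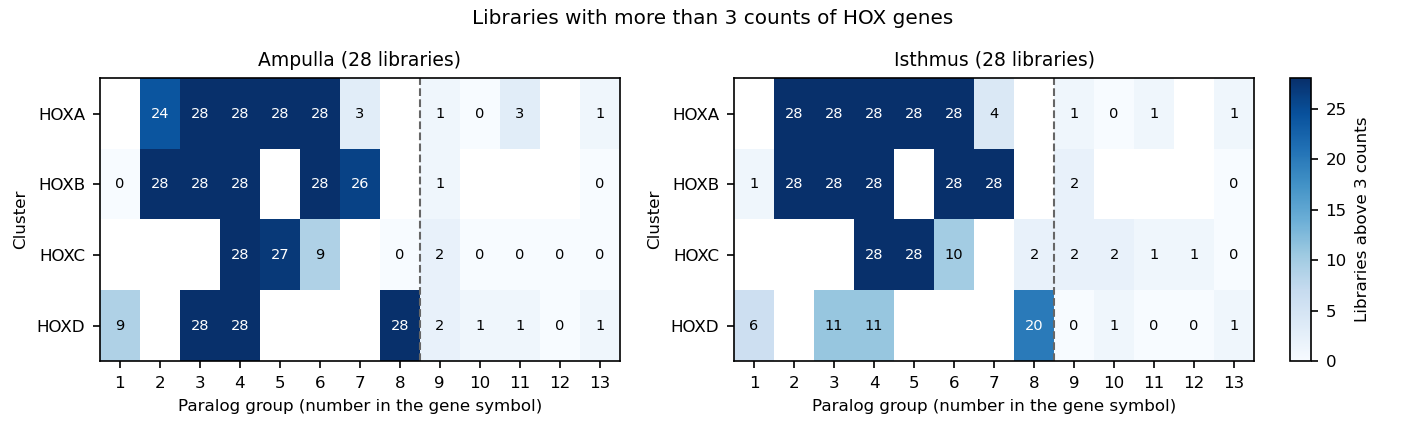
Number of libraries, of 28 per region, with more than 3 counts of HOX genes, by cluster (rows) and paralog group (columns); white squares hold no value shown here, and the dashed line divides groups 8 and 9. In the ampulla HOXD3, HOXD4 and HOXD8 passed 3 counts in 28 libraries each, and in the isthmus in 11, 11 and 20.

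The few counts of paralog groups 9 to 13 were spread unevenly. The median library held 4 of them, and 7 libraries held none. The contralateral isthmus of heifer E held 40 over 12 members and the contralateral ampulla of non-lactating cow B held 35 over 5 members, which made 25.3% of all 297. No other library held more than 14.

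Between isthmus and ampulla the detected members moved in both directions. On both sides 4 of 5 tested HOXB members were higher in the isthmus and the 3 tested HOXD members were higher in the ampulla. Of 5 tested HOXA members HOXA2 was higher in the isthmus and HOXA6 in the ampulla, and HOXC4 and HOXC5 passed the test on neither side. On the ipsilateral side 9 of the 15 tested members were called by edgeR's quasi-likelihood test with p-values adjusted after Benjamini and Hochberg over all genes (threshold 0.05), 5 higher in the isthmus and 4 higher in the ampulla. Of all 15276 genes tested there, 49.6% were called, 24.1% higher in the isthmus and 25.5% higher in the ampulla. On the contralateral side 10 of 15 members were called, 5 in each direction, against 42.5% of 15387 genes (21.1% higher in the isthmus, 21.4% higher in the ampulla). The 9 members called on the ipsilateral side were also called on the contralateral side, each in the same direction.

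With so many of all genes called, these counts say little about HOX genes as a group. The median log2 fold change (isthmus minus ampulla) of the 15 members was 0.19 on the ipsilateral side and -0.14 on the contralateral side, with -0.02 and -0.01 over all genes tested. Single members lay far out in size. By absolute log2 fold change HOXD3 and HOXD4 ranked 217 and 218 of 15276 genes on the ipsilateral side and HOXB6 ranked 571, and on the contralateral side they ranked 295, 249 and 390 of 15387. By p-value of edgeR's quasi-likelihood test HOXD3, HOXD4 and HOXB6 ranked 393, 602 and 338 ipsilaterally, and 721, 717 and 208 contralaterally. HOXD3 and HOXD4 had medians of 3 and 2 counts in the isthmus, so their ranks by fold change are uncertain. Both sides come from the same animals.

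HOXD3, an anterior member of its cluster, had between 2.84 and 14.5 CPM in the 14 ipsilateral ampulla libraries, with a median of 7.21. In the 14 ipsilateral isthmus libraries it had between 0 and 2.75 CPM, with a median of 0.44. On the contralateral side the ampulla ran from 3.63 to 22.4 CPM (median 9.498) and the isthmus from 0 to 3.60 CPM (median 0.85). The regions did not overlap on either side. The isthmus levels of HOXD3 rest on 100 counts over 28 libraries with a median of 3, so the size of the fold is less certain than its direction. Its log2 fold change was -3.63 (SE 0.34, adjusted p = 1.083e-09 by edgeR's quasi-likelihood test) on the ipsilateral side, a 12.4-fold difference. It was -3.44 (SE 0.42, adjusted p = 1.091e-07 by the same test) on the contralateral side, or 10.8-fold.

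HOXD4, its neighbour in the cluster, showed nearly the same levels. The ipsilateral ampulla held 3.35 to 12.97 CPM (median 7.71) and the ipsilateral isthmus 0 to 2.55 CPM (median 0.50), without overlap. On the contralateral side the ampulla held 2.94 to 24.4 CPM (median 9.40) and the isthmus 0 to 3.60 CPM (median 0.37), and only the highest isthmus library reached into the ampulla range. For HOXD4 the log2 fold change was -3.62 (SE 0.38, adjusted p = 7.266e-09) on the ipsilateral and -3.75 (SE 0.45, adjusted p = 1.077e-07) on the contralateral side in edgeR's quasi-likelihood test. HOXD3 and HOXD4 overlap in the RefSeq annotation of assembly ARS-UCD2.0, a later build than the one the reads were aligned to, so the levels of both are uncertain where their reads coincide. HOXD4 totalled 87 counts over the 28 isthmus libraries with a median of 2, so its fold is uncertain in size as well. HOXD3, HOXD4 and HOXD8 passed the filter on low counts through the ampulla.

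HOXD8, a middle member, had a smaller difference in the same direction. Its ipsilateral levels were 3.18 to 6.94 CPM in the ampulla (median 4.64) and 0 to 3.98 CPM in the isthmus (median 1.18). Its contralateral levels were 1.37 to 8.13 CPM (median 3.85) and 0 to 3.55 CPM (median 1.17). The regions overlapped on both sides. In HOXD8 the log2 fold change was -1.85 (SE 0.28, adjusted p = 4.08e-06) ipsilaterally and -1.66 (SE 0.38, adjusted p = 0.0007025) contralaterally, by edgeR's quasi-likelihood test. Within animals HOXD3, HOXD4 and HOXD8 were each higher in the ampulla in 14 of 14 animals on the contralateral side, and in 10 of 10 on the ipsilateral side when the 4 animals touched by the mismatched numbers were left aside.

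The summed CPM of the HOXD cluster ran from 12.97 to 50.4 in the 28 ampulla libraries and from 0.19 to 12.7 in the 28 isthmus libraries. The HOXB sum ran the other way, from 46.5 to 93.8 in the ampulla and from 110 to 460 in the isthmus. Neither sum overlapped between regions. The HOXC sums had medians of 25.9 in the ampulla and 23.3 in the isthmus, and their ranges overlapped.

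HOXB6 carried most of the HOXB difference. It had 8.68 to 36.1 CPM in the ipsilateral ampulla (median 18.8) and 45.8 to 202 CPM in the isthmus of that side (median 96.8). On the contralateral side it had 3.32 to 31.2 CPM (median 16.2) and 87.5 to 362 CPM (median 117). All isthmus libraries lay above all ampulla libraries on both sides. The log2 fold change of HOXB6 was 2.31 (SE 0.21, adjusted p = 5.955e-10) ipsilaterally, a 4.97-fold difference, and 2.99 (SE 0.26, adjusted p = 3.159e-10) contralaterally, a 7.95-fold difference, by edgeR's quasi-likelihood test.

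The rest of the HOXB cluster differed less between the regions. HOXB3 had a mean of 18.0 ± 6.33 CPM in the ampulla and 28.7 ± 8.65 CPM in the isthmus of the ipsilateral side (SD, n = 14 each), a log2 fold change of 0.63 (SE 0.17), and one of 0.86 (SE 0.13) on the contralateral side. HOXB4, known as a regulator of blood stem cells, went from 15.1 ± 4.72 to 24.8 ± 4.76 CPM (SD, n = 14 each), with log2 fold changes of 0.69 (SE 0.14) and 0.55 (SE 0.14). HOXB7 went from 2.79 ± 0.74 to 5.07 ± 2.02 CPM (SD, n = 14 each), with log2 fold changes of 0.81 (SE 0.21) and 1.02 (SE 0.30). All of these were called on both sides, the highest adjusted p by edgeR's quasi-likelihood test being 0.006932 for HOXB7 contralaterally, and the ranges of the regions overlapped for each. HOXB2 was 0.37 (SE 0.16) and 0.32 (SE 0.16) higher on the log2 scale and did not pass, with adjusted p = 0.0625 and 0.09782 in the same test. HOXB2 was called ipsilaterally by DESeq2 (adjusted p = 0.0496) and contralaterally with the animal as a replicate block, at 0.36 (adjusted p = 0.0379). HOXB3 overlaps HOXB4 and HOXB6 in the later annotation, so their levels are uncertain in the same way.

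**Figure D2:**
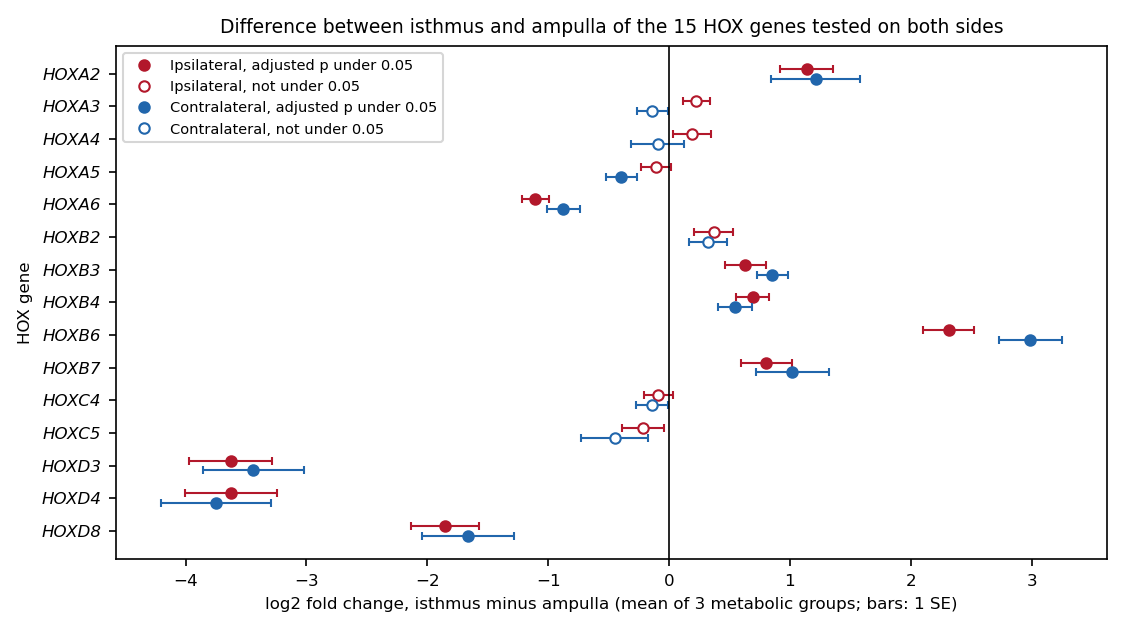
Log2 fold change, isthmus minus ampulla, of the 15 HOX genes tested on both sides (points; bars are 1 SE), ipsilateral in red and contralateral in blue, filled where the adjusted p was under 0.05. HOXB6 lies at 2.31 and 2.99, and HOXD3 and HOXD4 lie between -3.44 and -3.75.

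In the HOXA cluster HOXA2 and HOXA6 moved in opposite directions. HOXA2, the most anterior detected member and known for patterning the second pharyngeal arch, had 0.70 to 3.38 CPM in the ipsilateral ampulla (median 1.54) and 1.90 to 8.47 CPM in the ipsilateral isthmus (median 3.42). On the contralateral side it had 0 to 5.07 CPM (median 1.48) and 1.80 to 6.24 CPM (median 4.33). The ranges overlapped, and 13 of 14 animals had the higher contralateral level in the isthmus. From ampulla to isthmus HOXA2 had a log2 fold change of 1.14 (SE 0.22, adjusted p = 7.893e-05) and 1.21 (SE 0.37, adjusted p = 0.008428) by edgeR's quasi-likelihood test. These values rest on few counts in the ampulla, with a median of 7 per library against 19.5 in the isthmus.

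HOXA6 had 41.3 to 64.8 CPM in the ipsilateral ampulla (median 51.6) and 14.98 to 36.7 CPM in the ipsilateral isthmus (median 25.7), without overlap. On the contralateral side it had 36.8 to 72.1 CPM (median 54.4) and 18.4 to 51.3 CPM (median 30.2), with overlap, and 14 of 14 animals were higher in the ampulla. HOXA6 thus had a log2 fold change of -1.11 (SE 0.11, adjusted p = 3.917e-09) and -0.87 (SE 0.13, adjusted p = 5.554e-06) in edgeR's quasi-likelihood test.

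HOXA5, known for its part in lung development, was called on the contralateral side only, at -0.39 (SE 0.13, adjusted p = 0.01562 by edgeR's quasi-likelihood test). The ipsilateral value was -0.11 (SE 0.13, adjusted p = 0.5076), and the test of the difference between sides did not call HOXA5. Its contralateral call was lost with the animal as a replicate block, at -0.36 (adjusted p = 0.0913), and without a term for the metabolic group, at -0.33 (adjusted p = 0.11). HOXA3 (0.22 and -0.14) and HOXA4 (0.19 and -0.09) passed on neither side, nor did HOXC4 (-0.09 and -0.14) and HOXC5 (-0.21 and -0.45), given as log2 fold changes on the ipsilateral and the contralateral side. HOXA5 overlaps HOXA3 and HOXA6 in the later annotation, and HOXA3 overlaps HOXA4.

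**Figure D3:**
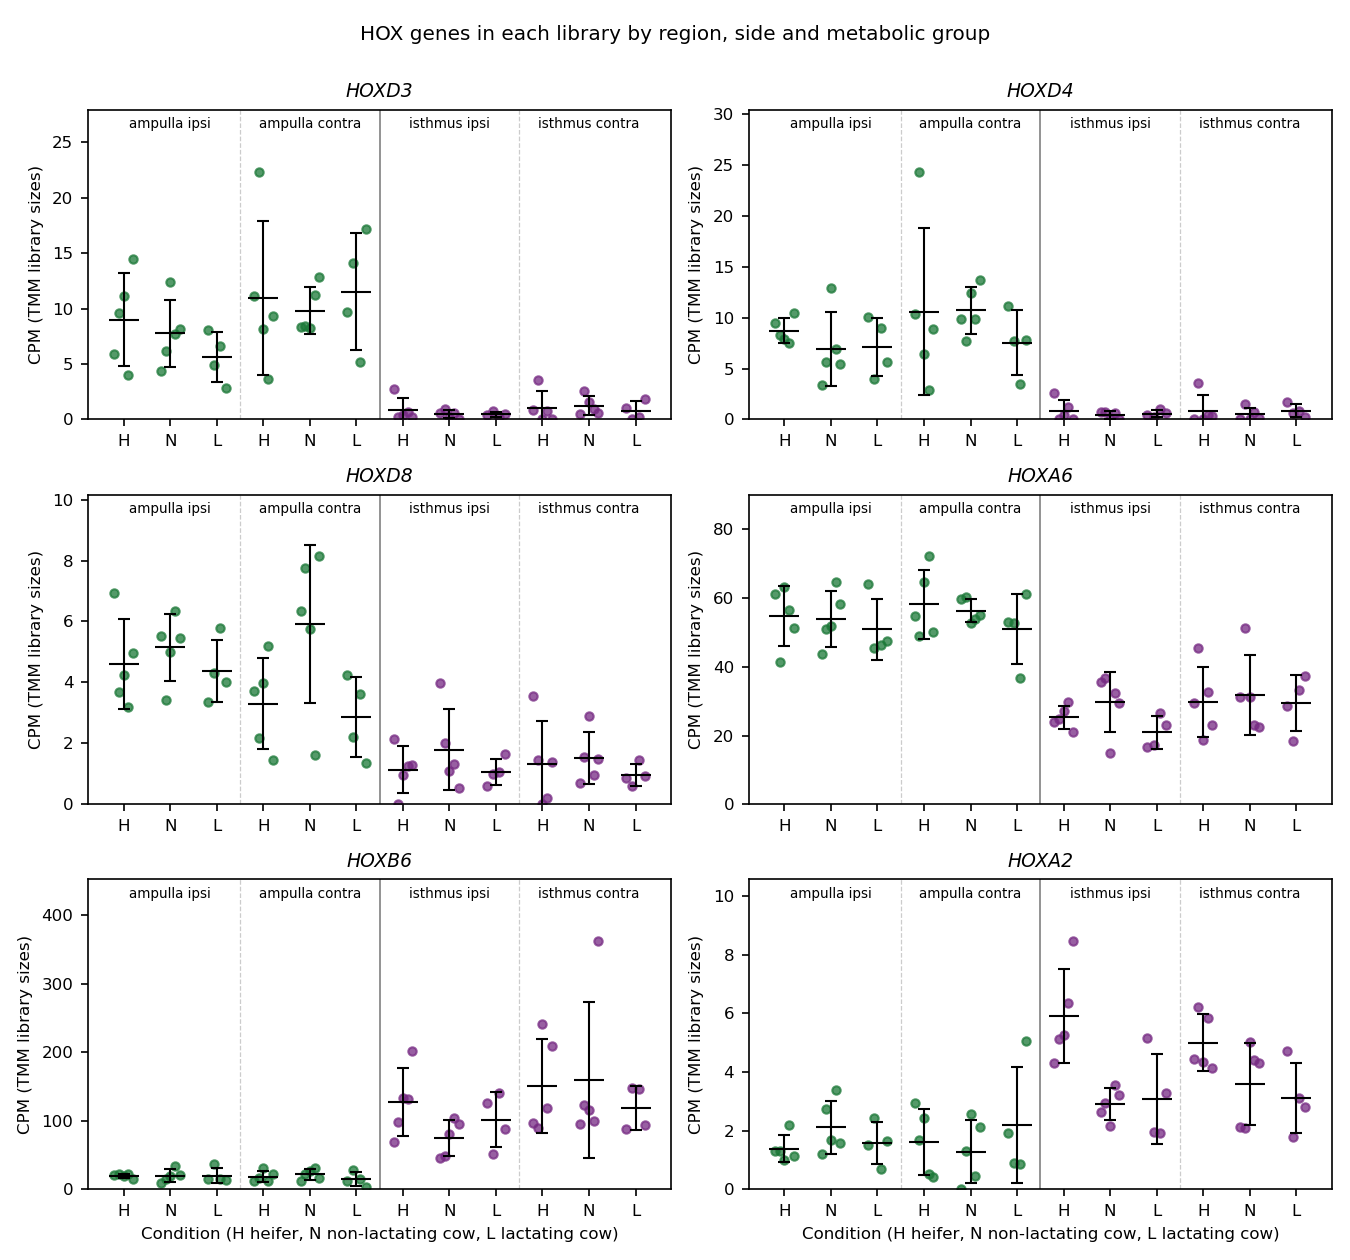
CPM of 6 HOX genes in each library (points) with the mean and SD of each of the 12 conditions (black), ampulla in green and isthmus in purple; H, N and L stand for heifers, non-lactating and lactating cows, with 5, 5 and 4 animals. HOXD3 and HOXD4 stay at or below 3.60 CPM in every isthmus library, and HOXB6 stays at or below 36.1 CPM in every ampulla library.

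The difference between regions was then tested within each metabolic group and side. HOXB6, HOXD3 and HOXD4 were called in all 6 comparisons, with log2 fold changes of 1.92 to 3.05 for HOXB6, -3.99 to -3.15 for HOXD3 and -4.66 to -3.12 for HOXD4. HOXB6 and HOXD3 did not overlap between the regions in any of the 6, and HOXD4 overlapped in 1. The share of all genes without overlap was not counted, so non-overlap does not set these members apart from other genes. HOXD8 was called in the 4 comparisons that tested it and HOXA6 in 5 of 6. Here too HOXD3, HOXD4 and HOXD8 passed the filter on low counts through the ampulla. The 4 of 4 for HOXD8 is therefore not independent of the filter. HOXB3 was called in 4, HOXB4 in 3, HOXA2 in 2 of the 5 that tested it, and HOXA3, HOXA5 and HOXB7 in 1 each. HOXA2, with a median of 7 counts in the ampulla and 19.5 in the isthmus, passed that filter through the isthmus. Its 2 of 5 is likewise not independent of the filter. HOXA6, HOXB2, HOXB3, HOXB4 and HOXB7 kept the same sign in all 6, and HOXA3, HOXA4, HOXA5, HOXC4 and HOXC5 did not.

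In heifers 9 of 15 members were called on the ipsilateral side, where 35.4% of all genes were called, and 7 of 14 on the contralateral side (25% of all genes). In non-lactating cows 5 of 15 were called ipsilaterally (18.7% of all genes) and 7 of 14 contralaterally (20.4%). In lactating cows the numbers were 6 of 15 (15.8%) and 5 of 14 (10.4%). With the animal as a replicate block these calls changed for HOXD8 in the ipsilateral comparison of non-lactating cows (adjusted p = 0.0932), HOXB4 in that of lactating cows (0.0586) and HOXB7 in the contralateral comparison of heifers (0.0604), which were lost, and for HOXA6 in the contralateral comparison of lactating cows, which was gained at -0.82 (0.00426).

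**Figure D4:**
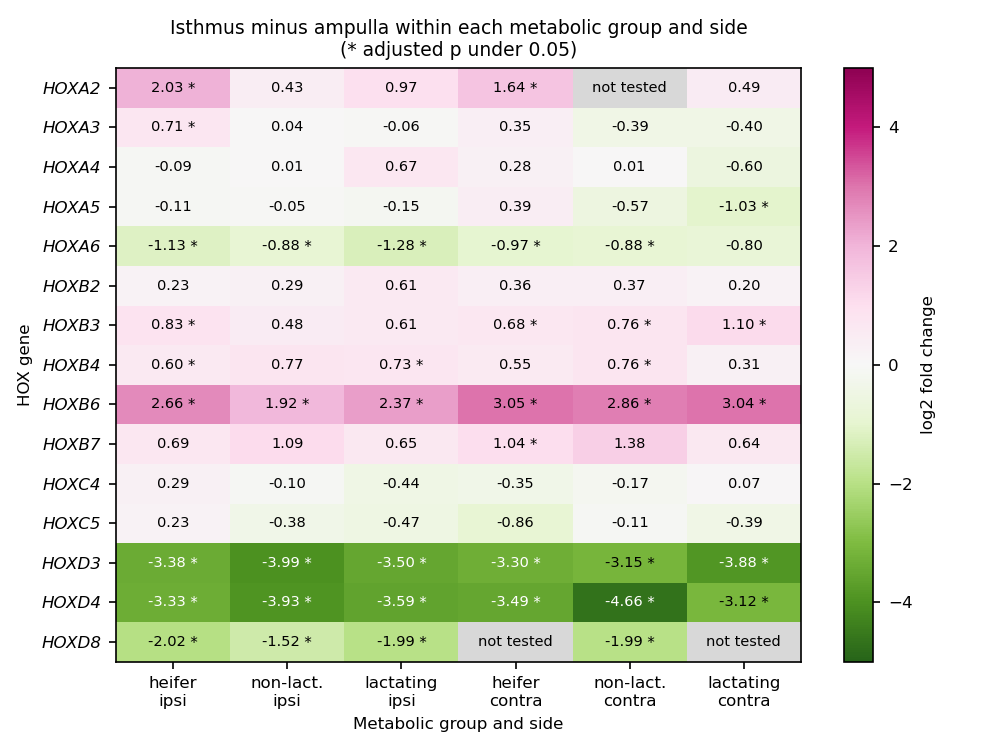
Log2 fold change, isthmus minus ampulla, of the 15 detected HOX genes within each metabolic group and side (green higher in the ampulla, pink higher in the isthmus; an asterisk marks an adjusted p under 0.05). The rows of HOXB6, HOXD3 and HOXD4 carry an asterisk in all 6 columns.

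HOXD3 in the isthmus was highest in heifer E. The ipsilateral isthmus held 0.26, 0.19, 0.39, 0.64 and 2.75 CPM in heifers A to E, and the contralateral isthmus 0, 0.89, 0, 0.81 and 3.60 CPM. HOXD4 gave 0, 0, 0.39, 1.27 and 2.55 CPM, and 0.35, 0, 0, 0.40 and 3.60 CPM. On each side heifer E had the highest level of both genes among all 14 isthmus libraries, with 13 to 15 counts against at most 8 elsewhere. Among the 14 isthmus libraries of a side heifer E ranked 2 and 6 from the top for HOXD8 and 9 and 2 for HOXA6 (ipsilateral and contralateral), and 11 and 13 for HOXB6, which is low in the ampulla. Across the 200 genes that best separated the regions in the other animals, with ampulla set to 0 and isthmus to 1, the isthmus libraries of heifer E stood at 1.07 and 0.99, within the range of 0.75 to 1.20 of all isthmus libraries. Heifer E also had the highest contralateral ampulla level of HOXD3 and HOXD4, 22.4 and 24.4 CPM. Without heifer E the contralateral log2 fold changes remained called, and over all 14 animals left out in turn they ran from -3.75 to -3.30 for HOXD3 and from -4.25 to -3.60 for HOXD4.

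Some members of a cluster also varied together across the libraries of a region. After the mean of each condition was removed, HOXD3 and HOXD4 had a Pearson correlation of 0.78 in the ampulla and 0.62 in the isthmus. HOXB3 and HOXB4 had 0.65 and 0.67. HOXA3 and HOXA4 had 0.07 in the ampulla and 0.71 in the isthmus (n = 28 libraries of 14 animals each). These pairs are neighbours in a cluster, and the genes of each pair overlap in the later annotation. The part of that overlap in their correlation was not tested. Over the 24 pairs of members of the same cluster the median correlation was 0.40 in the isthmus and 0.11 in the ampulla, and over the 81 pairs of different clusters it was 0.14 and 0.06. The extremes of those 81 pairs in the isthmus were -0.66, between HOXB6 and HOXD3, and 0.61, between HOXB2 and HOXC4. They are descriptions, since libraries share animals and depth.

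Between the sides of the CL, 1 of 36 member tests in the isthmus was called, against 5.07% of all gene tests. So small a count says little about HOX genes as a group. In the isthmus of heifers HOXC4 had 27.7, 22.2, 28.1, 27.1 and 21.8 CPM on the ipsilateral side (heifers A to E) and 18.7, 13.3, 12.8, 16.5 and 14.9 CPM on the contralateral side. Every ipsilateral value lay above every contralateral one, and the log2 fold change (ipsilateral minus contralateral) was 0.71 (SE 0.15, adjusted p = 0.01361 by edgeR's quasi-likelihood test). HOXC4 was the only one of 12 tested members called there, against 10% of all genes. That share was 1.32% without heifer E, 3.09% without heifer A, 3.86% without heifer B, 6.13% without heifer C and 9.97% without heifer D. The call was lost without heifer C (adjusted p = 0.0588) and without heifer E (adjusted p = 0.0618), with values of 0.61 and 0.75. In the isthmus of non-lactating and lactating cows HOXC4 was 0.17 (SE 0.22) and 0.12 (SE 0.24), and no test compared these with the heifers.

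HOXC5, the next gene of the cluster, followed HOXC4 in heifers without passing. Its ipsilateral isthmus held 6.41, 4.92, 8.19, 7.84 and 7.85 CPM in heifers A to E and its contralateral isthmus 2.77, 3.55, 2.82, 6.04 and 2.88 CPM, overlapping through heifer D. Its log2 fold change was 0.91 (SE 0.28, adjusted p = 0.05808 by edgeR's quasi-likelihood test), and 0.97 (adjusted p = 0.043) with the animal as a replicate block.

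HOXB6 in non-lactating cows had 80.1, 45.8, 103, 47.7 and 95.2 CPM in the ipsilateral isthmus (cows A to E) and 99.8, 123, 362, 116 and 95.5 CPM in the contralateral isthmus. Every cow was higher on the contralateral side, and the groups overlapped. Ipsilateral minus contralateral, the log2 fold change was -1.11 (SE 0.37, adjusted p = 0.1073 by edgeR's quasi-likelihood test), and it was called with the animal as a replicate block, at -0.98 (adjusted p = 0.0323). Of all genes 5.11% were called there, falling to between 1.71% and 4.27% when a cow was left out, and 0.187% in lactating cows, where no member was called.

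In the ampulla no HOX gene was called between sides in any metabolic group, against 0 to 0.0947% of all genes. By an unadjusted p under 0.05, edgeR had 6 of 42 member tests there (14.3%, against 8.16% of all gene tests), and DESeq2 called none at its adjusted threshold. The difference of the region effect between sides called 4.95% of 16060 genes and none of 16 members. By edgeR's quasi-likelihood test 1 member, HOXA3, had an unadjusted p under 0.05 (6.25%, against 19.0% of all genes).

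Metabolic group called no HOX gene in any of 12 comparisons. Only 1 of 166186 gene tests was called by edgeR over these comparisons, 0.000602%, so that test called nearly nothing at all in them. The call lay in the ipsilateral isthmus between non-lactating cows and heifers (0.0073% there). By an unadjusted p under 0.05 edgeR's quasi-likelihood test had 16 of 156 member tests (10.3%, against 6.72% of all gene tests). DESeq2 called no member, though it called many more genes over these comparisons, as counted in the last section. HOXA2 in the ipsilateral isthmus had the lowest adjusted p. It held 8.47, 5.11, 5.26, 6.35 and 4.32 CPM in heifers A to E and 2.17, 2.65, 3.56, 2.93 and 3.22 CPM in non-lactating cows A to E, without overlap. Its log2 fold change (non-lactating minus heifer) was -0.99 (SE 0.27, adjusted p = 0.2004 by edgeR's quasi-likelihood test), and lactating cows minus heifers gave -0.90 (SE 0.37).

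HOXA5 in the contralateral isthmus had a mean of 20.1 ± 4.63 CPM in heifers (SD, n = 5), 15.8 ± 4.23 in non-lactating cows (SD, n = 5) and 10.4 ± 3.38 in lactating cows (SD, n = 4). The log2 fold change of lactating cows against heifers was -0.94 (SE 0.24, adjusted p = 0.3715 by edgeR's quasi-likelihood test). Whether the region effect differed among metabolic groups was tested for 15 members on each side, with none called and 0% of all genes called. Of these 30 member tests 4 had an unadjusted p under 0.05 by edgeR's quasi-likelihood test (13.3%, against 3.05% of all gene tests). DESeq2's likelihood ratio test called none.

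HOX proteins act with PBX and MEIS partners, and some of these differed between the regions. Of 9 cofactor genes listed, 7 were tested, of which 1 was higher and 3 lower in the isthmus on the ipsilateral side, and 3 were higher and 3 lower on the contralateral side. These are 57.1% and 85.7% of the tested cofactors, against 49.6% and 42.5% of all genes. On the ipsilateral side the log2 fold change was -1.61 (SE 0.16) for MEIS2 and 1.49 (SE 0.43) for MEIS3. MEIS2 averaged 140 ± 16.6 CPM in the ipsilateral ampulla and 47.8 ± 20.9 CPM in the isthmus (SD, n = 14 each). The median log2 fold change of the 7 was -0.12 ipsilaterally and -0.10 contralaterally.

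Retinoic acid genes were mostly higher in the ampulla. Of 12 tested, 7 were higher in the ampulla and 1 in the isthmus on each side (66.7% called, against 49.6% and 42.5% of all genes), with medians of -0.49 and -0.55 against -0.02 and -0.01 over all genes. ALDH1A3, which makes retinoic acid, held 185 counts in 14 ipsilateral ampulla libraries and 16 in 14 isthmus libraries. STRA6, the receptor that takes up retinol, had log2 fold changes of -1.76 (SE 0.42) and -1.92 (SE 0.47). CRABP2, which carries retinoic acid within the cell, had -1.75 (SE 0.37) and -1.70 (SE 0.45), and the nuclear receptor RXRG -2.43 (SE 0.50) and -2.42 (SE 0.60). RXRA was higher in the isthmus on both sides, by 0.30 (SE 0.11) and 0.40 (SE 0.09).

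Chromatin regulators of HOX clusters that were called were mostly higher in the isthmus. Of 21 tested, 8 were higher and 3 lower in the isthmus on the ipsilateral side, and 10 and 1 on the contralateral side. That is 52.4% on each side, against 49.6% and 42.5% of all genes. The median log2 fold changes of the list were 0.13 and 0.24, against -0.02 and -0.01 over all genes. CBX2, a Polycomb protein, was higher by 2.01 (SE 0.36) and 2.81 (SE 0.32), PCGF2 by 0.82 (SE 0.11) and 0.98 (SE 0.11), and EED by 0.62 (SE 0.08) and 0.78 (SE 0.13). The CBX2 values rest on low ampulla means of 0.945 CPM ipsilaterally and 0.892 CPM contralaterally. EZH2, the methyltransferase of Polycomb complex 2 and a gene of dividing cells, had log2 fold changes of -1.21 (SE 0.22) and -1.05 (SE 0.19).

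Of the genes that pattern the reproductive tract, 5 of 15 were higher and 4 lower in the isthmus on the ipsilateral side, and 8 and 4 of 16 on the contralateral side. These are 60% and 75%, against 49.6% and 42.5% of all genes. MSX1, a homeobox gene, was higher by 3.41 (SE 0.33) and 4.07 (SE 0.30), and WNT5A, a secreted ligand needed for outgrowth of the tract, by 1.28 (SE 0.13) and 1.63 (SE 0.21). LHX1, required for the embryonic duct to form, had no count in 14 ipsilateral ampulla libraries and 185 counts in the 14 isthmus libraries, with 1 and 113 counts on the contralateral side. WNT4, a ligand needed for the duct, had log2 fold changes of -0.96 (SE 0.22) and -0.81 (SE 0.22). Of 10 related homeobox genes outside the clusters in the table (CDX, EVX, GSX, GBX, PDX1 and MNX1 genes) none had enough counts to be tested.

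**Figure D5:**
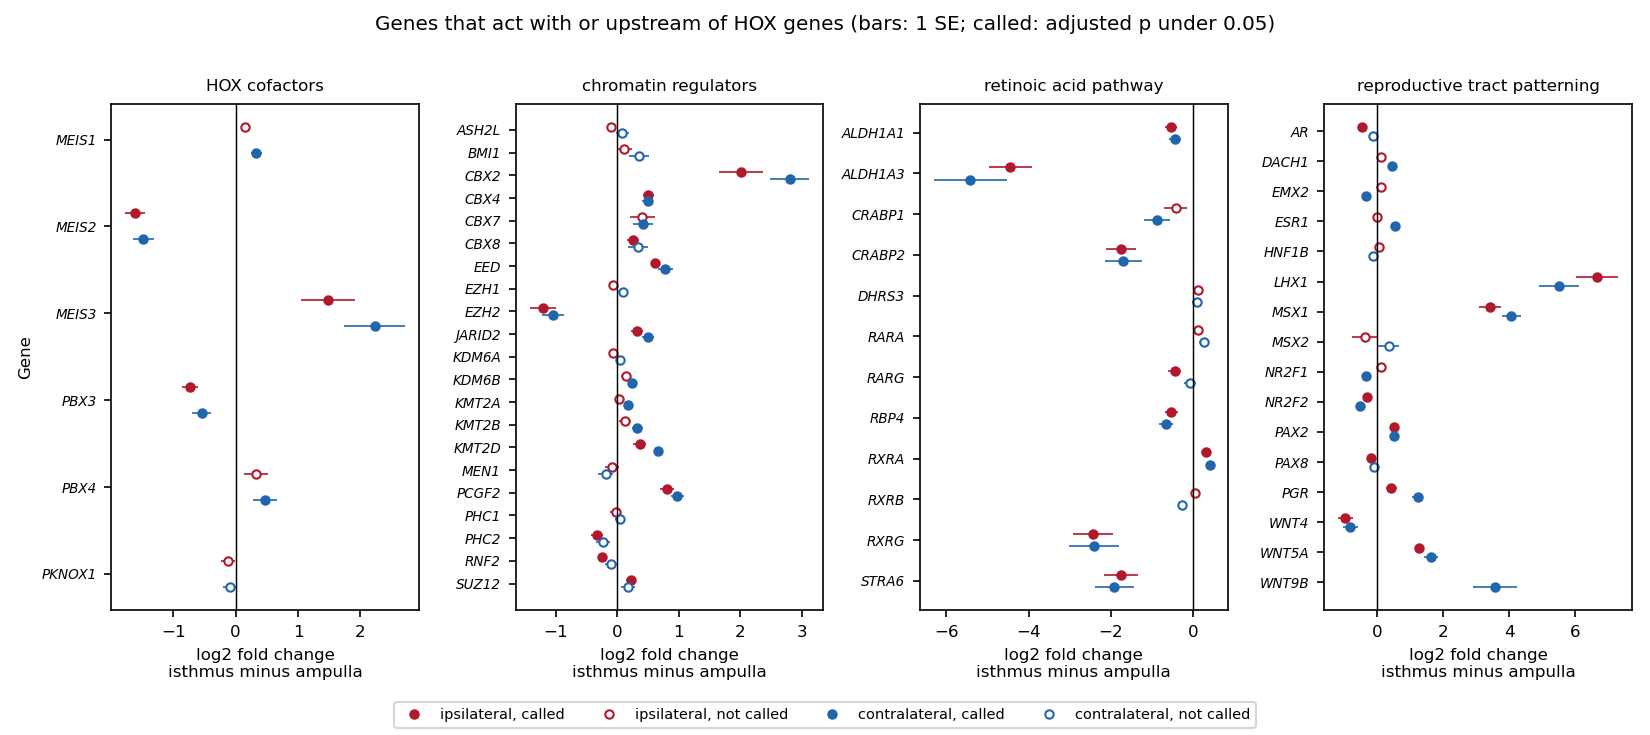
Log2 fold change, isthmus minus ampulla (points; bars are 1 SE), of genes in 4 lists, ipsilateral in red and contralateral in blue, filled where the adjusted p was under 0.05. MEIS2 and most retinoic acid genes lie left of 0, higher in the ampulla, and MSX1, LHX1 and CBX2 lie right of 0; the plotted values of LHX1 and ALDH1A3 depend on a prior count because a group is at or near 0.

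Within the clusters the table holds 2 uncharacterized loci that passed the test. LOC100848443, inside HOXA, was higher in the isthmus by 0.79 (SE 0.15) and 0.72 (SE 0.18) on the log2 scale, and LOC100848766, which overlaps HOXB3, by 1.26 (SE 0.16) and 1.46 (SE 0.19).

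Markers of cell types also differed between the regions and are given beside the HOX results. All 11 ciliated markers were tested, 10 were lower in the isthmus on the ipsilateral side and 11 on the contralateral side, and their median log2 fold changes were -0.43 and -0.57. Their summed level was 6684 to 11209 CPM in the ampulla and 4587 to 7572 CPM in the isthmus. The mesothelial markers MSLN and UPK3B were lower in the isthmus on both sides, their list summing to 92.8 to 562 CPM in the ampulla and 15.1 to 196 CPM in the isthmus. Endothelial markers summed to 83.4 to 388 CPM and 11.4 to 122 CPM, mostly through KDR, with 3 of 4 lower in the isthmus on both sides. Smooth muscle markers summed to 10.6 to 38.7 CPM and 18.0 to 97.1 CPM, and MYH11 was higher in the isthmus while DES and SMTN were lower on both sides. Fibroblast markers summed to 14.9 to 185 CPM and 10.04 to 359 CPM. LUM and DCN were higher in the isthmus, and 1 of the 5 tested on both sides was lower there on both. Of 7 secretory markers 1 was higher and 3 lower in the isthmus ipsilaterally, and none was higher and 3 lower contralaterally, with WT1 at -1.59 and -1.99 on the log2 scale. Their sum was 12462 to 48176 CPM in the ampulla and 767 to 25928 CPM in the isthmus, where the medians of the sides were 15654 and 15947, and the lowest isthmus library of each side (767 and 1207 CPM) lay far below its median. Of the epithelial list 5 and 3 of 6 were higher in the isthmus. Lymphocyte markers had 1 of 6 lower on each side and macrophage markers 1 of 5 lower ipsilaterally and 0 contralaterally. Their part in the HOX differences was not tested.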

How the data were processed

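Reads were trimmed and aligned with TopHat2 (version 2.0.13) to bovine build Btau_4.6.1 by the authors, who counted them per gene with HTSeq (version 0.6.1), by strand and in its strict intersection mode. The deposited values are raw counts, 1 column per library. The 5 summary lines were left out. Reads that lie wholly within overlapping genes of a strand are not counted in that mode.

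Counts were normalized by TMM and tested with edgeR (4.0.16) in R (4.3.3), keeping genes by filterByExpr with a minimum count of 10. Region contrasts averaged 3 metabolic groups within a side, and all other comparisons used their own conditions. Standard errors were the log2 fold change over the root of F. CPM used TMM library sizes over 56 libraries and are not divided by gene length. The test was checked on simulated data. Alternatives were RLE size factors, DESeq2 (1.42.0), no filter, robust dispersions, an animal block, a single fit, mismatched libraries dropped or exchanged, and each animal left out.

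The members and gene lists were chosen with earlier results of these data known. Each member was analysed, a few items are not reported here, and those called in a comparison are given in full. Animal numbers came from the column names. Libraries of a number correlated between regions (medians of 0.20 and 0.21, ipsilateral and contralateral), and p-values measure the spread between these animals. All 104 pairs of libraries of a condition differed by more than sampling noise. Base sequences and coordinates are not given, since the genes came without a genome of that build.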

Additional observations from a re-analysis of the deposited data

Results flagged for a closer look

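Among 180 groups of 4 or 5 libraries (15 detected HOX genes in 12 conditions), 16 held a library set far from the others by Dixon's test on CPM. Chance flags about 1 in 20 groups of normally distributed values. The CPM were not transformed, and animals and neighbouring genes are shared among the groups, so that rate is only a rough guide. Of the 16 values, 15 were the highest of their group.

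Heifer E stood apart in HOXD genes of the isthmus. HOXD3 was 2.75 CPM ipsilaterally, the other heifers having 0.19 to 0.64, and 3.60 CPM contralaterally, the others having 0 to 0.89. HOXD4 was 3.60 CPM contralaterally, the others having 0 to 0.40. In the contralateral ampulla heifer E also had 27.7 CPM of HOXB4, the others having 12.3 to 14.8.

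HOXB6 in the contralateral isthmus of non-lactating cow C was 362 CPM, the others having 95.5 to 123, and HOXB4 in the same library was 34.2 CPM, the others having 18.5 to 21.7. The ipsilateral ampulla library of the lactating group whose column bears the animal number of non-lactating cow C had 36.1 CPM of HOXB6, the others having 12.6 to 14.6, and 2.25 CPM of HOXB7, the others having 2.81 to 2.84. That library resembled lactating cow B.

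In heifers, HOXA2 was 2.19 CPM in the ipsilateral ampulla of heifer A, HOXB2 was 28.7 CPM in the ipsilateral isthmus of heifer A, and heifer D had 22.3 CPM of HOXA5 in the contralateral ampulla and 6.04 CPM of HOXC5 in the contralateral isthmus. In lactating cows, cow C had 9.20 CPM of HOXA4 in the contralateral isthmus, 64.0 CPM of HOXA6 in the ipsilateral ampulla and 32.4 CPM of HOXB3 in the ipsilateral isthmus, and cow D had 15.5 CPM of HOXA5 in the contralateral isthmus.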

How the results depend on the processing

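HOXA2, HOXA6, HOXB3, HOXB4, HOXB6, HOXB7, HOXD3, HOXD4 and HOXD8 kept their direction and their call on both sides under every alternative run and with each animal left out. The number of members called between regions was 9 to 11 ipsilaterally and 10 to 11 contralaterally with animals left out, 5 to 7 and 5 to 6 of them higher in the isthmus and 4 to 4 and 5 to 5 higher in the ampulla. Without a filter 8 rather than 5 members were higher in the contralateral isthmus, through HOXB1, HOXC10 and HOXC11, which have few counts. Over the 6 comparisons within a group and side, 39 calls became 34 to 40 with animals left out. Between sides in the isthmus 1 call became 3 with DESeq2 and 3 with the animal as a replicate block, which added HOXC5 in heifers and HOXB6 in non-lactating cows, and it was 0 to 2 with animals left out, and the cause was not tested. HOXB2 was gained ipsilaterally without lactating cow A, B or D or non-lactating cow A, HOXA3 without lactating cow A or non-lactating cow A, and HOXB2 contralaterally without heifer E. Over all genes, sides in the isthmus gave 2096 calls (DESeq2 3535, block 3277), sides in the ampulla 13 (DESeq2 241, block 174, no filter 74, single fit 96, pair exchanged 5), metabolic groups 1 (DESeq2 525, no filter 49, single fit 18, pair exchanged 2) and the region effect between sides 795 (block 1290, without the mismatched libraries 447). Sides in the ampulla, metabolic groups and the differences of the region effect gave 0 members, and 0 to 0 with animals left out. Apart from HOXA5 and HOXB2, the replicate block changed no member's call in the comparison of regions by side. With the 4 mismatched libraries left out, the ipsilateral region comparison called 9 members, as it did with the mismatched pair exchanged. Metabolic groups are different animals. Their column names share a leading number whose meaning is not given in the sources used here, and libraries sharing it across groups had a median correlation of 0.046 (11 of 32 pairs above 0.1). Pairs across groups that did not share it had a median of -0.013 (62 of 228 above 0.1). As a replicate block in the 8 comparisons with at least 2 shared leading numbers, the leading number left 0 HOX calls (6 genes called in all). A block by title number was not run, since the columns carry none. The block by leading number, the block with corrected numbers (9 members called ipsilaterally) and the fit without the library richest in posterior counts (10 contralaterally) were chosen after seeing the data. Depth limits the members near 3 counts, above all HOXD genes in the isthmus and paralog groups 9 to 13.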
